A study of Mus musculus with 10 samples.

Results

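The genes described are 8 early B cell genes: Pax5, Ebf1, Cd79a, Cd79b, Vpreb1, Vpreb3, Igll1 and Blnk. They were chosen by name as B lineage transcription factors, surrogate light chain genes and genes of the pre-B receptor, out of 25178 genes in the count table. All 8 were found there, Vpreb1 under the symbol Vpreb1a and by its identifier ENSMUSG00000059305. They were measured by bulk RNA-seq in 5 female and 5 male C57/BL6 mice, an inbred laboratory strain, kept at steady state with no treatment or engineered allele named in the labels. Marrow of 1 hindlimb per mouse was depleted of cells with mature lineage markers on magnetic beads, which enriches for hematopoietic stem and progenitor cells, and each mouse gave 1 library. Both sexes were handled alike as far as the labels say, and neither the age of the mice nor the antibodies of the depletion is given in the sources used here. The question is how the sexes differ in blood formation without injury.

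B cells arise in the marrow from lymphoid progenitors. Ebf1 and Pax5 encode the transcription factors that start and then fix the B lineage program. A pro-B cell that has rearranged its heavy chain gene displays that chain with a surrogate light chain, made of the products of Vpreb1 and Igll1, and the products of Cd79a and Cd79b carry the signal of this pre-B receptor into the cell. Blnk encodes the adaptor that links the receptor's kinases to downstream enzymes, and Vpreb3 encodes a related protein of B lineage cells that binds immunoglobulin chains inside the cell. Depletions of this kind commonly remove cells with B cell surface proteins, and which ones were used here was not stated in the labels.

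All 8 genes had their highest level in 1 library, male replicate 1, and 5 of them averaged over 3-fold more in males than in females. With that library left out, only 1 of the 8, Pax5, did. Male replicate 1 was also highest for the summed neutrophil, erythroid, monocyte and macrophage, plasma cell, T and natural killer, and lymphoid priming markers. It was not highest for those of stroma, dendritic, or stem and progenitor cells. Shares of all genes highest in that library or over 3-fold higher in males are not given here. Pax5 differed most between the sexes and Ebf1 least. Over all 10 mice edgeR called none of the 7 genes it tested after adjustment, and DESeq2 called 2 of them, Pax5 and Cd79a. Together the 8 genes had between 267 and 411 counts in each female library and between 377 and 1151 in each male library, out of totals of 20754101 to 24759687. The summed level, in CPM (counts scaled to a common library size), was 12.95 to 17.1 in females and 16.1 to 48.3 in males, and only male replicate 3 lay inside the female range. In bulk RNA, fewer cells of a type and less RNA per cell cannot be told apart.

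Some facts of the whole set bear on these values. Xist and the Y-linked genes Ddx3y, Uty, Eif2s3y and Kdm5d separated the mice as labelled. Male replicates 1 and 2 had the highest summed levels of mature neutrophil and erythroid markers, and male replicate 2 had the lowest scaling factor (0.886, the others 0.964 to 1.05). Results below are therefore also given without these libraries where that changes them.

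Counts were tested with the quasi-likelihood test of edgeR over 14674 genes that passed a filter on low counts, and p-values were adjusted over all of them by the Benjamini-Hochberg method. Log2 fold changes are female against male, so a negative value means less in females. Of the 8 genes 7 passed the filter and 0 were called at an adjusted p under 0.05, against 0.0545% of all genes tested in either direction and 0.0341% in that of lower levels in females. Before adjustment, 5 of the 7 had p under 0.05 and lower levels in females (Pax5, Cd79a, Cd79b, Vpreb1 and Vpreb3), against 5.41% of all genes tested. Without male replicates 1 and 2 that count was 3 of 7, against 1.94%. Igll1 did not pass the filter because only 4 libraries, 3 of them male, had 10 counts or more, and Pax5 passed with 5 such libraries, 4 of them male. Without any filter, 6 of the 8 genes had an unadjusted p under 0.05 and were lower in females, against 4.85% of 25178 genes. All 7 filtered genes had a negative log2 fold change, as had 52.0% of all genes, and their median was -1.67 against -0.01 over all genes tested. The Wald test of DESeq2 called 2 of the 7, Pax5 and Cd79a, against 0.116% of genes called lower in females by that tool. The limma test on voom values with quality weights called 0 of the 7, against 0.0341%. In no gene of the 7 did all females lie below all males, against 0.865% of all genes tested.

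**Figure D1:**
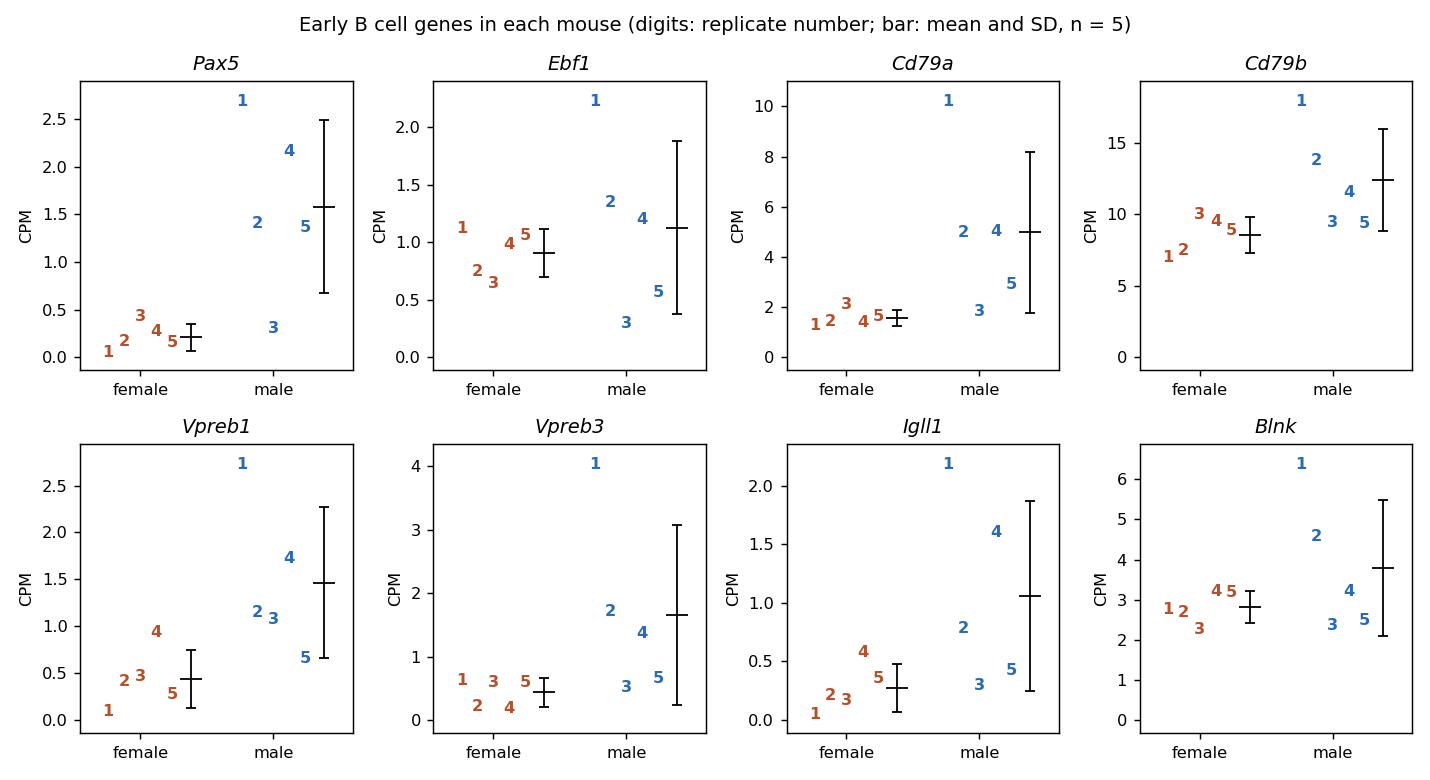
Level of each early B cell gene in CPM (vertical axes, a separate scale for each gene) in 5 female and 5 male mice; digits are replicate numbers and bars the mean with its SD. Male replicate 1 is the highest mouse in all 8 panels, and male replicate 3 lies above all females only for Vpreb1.

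Among the transcription factors, Pax5 (ENSMUSG00000014030, chromosome 4, 44524757 to 44710487, GRCm38) had 1, 4, 10, 6 and 4 counts in female replicates 1 to 5 and 64, 27, 7, 54 and 29 in male replicates 1 to 5. Females averaged 0.213 ± 0.143 CPM and males 1.58 ± 0.906 CPM (SD, n = 5 each). Male replicate 3, at 0.299 CPM, lay below female replicate 3 at 0.427 CPM, and the other 4 males lay above every female. On the log2 scale the difference was -2.86 (SE 0.57, edgeR adjusted p = 0.19999). DESeq2 gave an adjusted p of 0.00128, and edgeR without male replicate 3 gave -3.13 with an adjusted p of 0.0443. The other fits that left out 1 library gave adjusted p up to 0.541 and log2 values from -3.26 to -2.59. Without male replicates 1 and 2 the value was -2.55 (SE 0.60, adjusted p = 0.243).

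Ebf1 (ENSMUSG00000057098, chromosome 11, 44617317 to 45008091) acts before Pax5 in the B lineage and is also expressed in marrow stroma. Female replicates 1 to 5 had 23, 18, 15, 22 and 27 counts, and male replicates 1 to 5 had 53, 26, 7, 30 and 12. Females spanned 0.641 to 1.12 CPM and lay within the male span of 0.299 to 2.22 CPM, so that the lowest and the highest mouse were both male. The log2 fold change was -0.32 (SE 0.44, adjusted p = 0.715). Leaving out male replicate 1 turned it to 0.087, and leaving out both male replicates 1 and 2 to 0.38. Stroma markers were present in these libraries at a summed level of 352 to 2462 CPM in females and 379 to 2769 CPM in males (13 of 13 genes measured, led by Col1a1, Col1a2 and Cxcl12). They were highest in male replicate 5 and female replicate 1, which had 0.563 and 1.12 CPM of Ebf1, and their part in the Ebf1 level was not tested.

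Measured per kilobase of exon, Pax5 stood lower against Ebf1 in females than in males. The ratio of their CPM per kilobase was 0.0479, 0.245, 0.735, 0.301 and 0.163 in female replicates 1 to 5, and 1.33, 1.14, 1.102, 1.98 and 2.66 in male replicates 1 to 5. Every female ratio lay below every male ratio, including that of male replicate 3, whose levels of both genes were low. The ratios of Cd79a to Cd79b and of Vpreb1 to Igll1 overlapped between the sexes. How often other gene pairs separate the sexes is not given here. The ratio of Pax5 to Ebf1 was picked with the values of both genes known, so no test is given. That of female replicate 1 rests on 1 count of Pax5. Overlapping transcripts limit it as well: 7.02% of the 50-base stretches of Pax5 transcripts also occur in 5730488B01Rik or Gm12462, genes annotated on the opposite strand, while Ebf1 shared none with another gene.

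**Figure D2:**
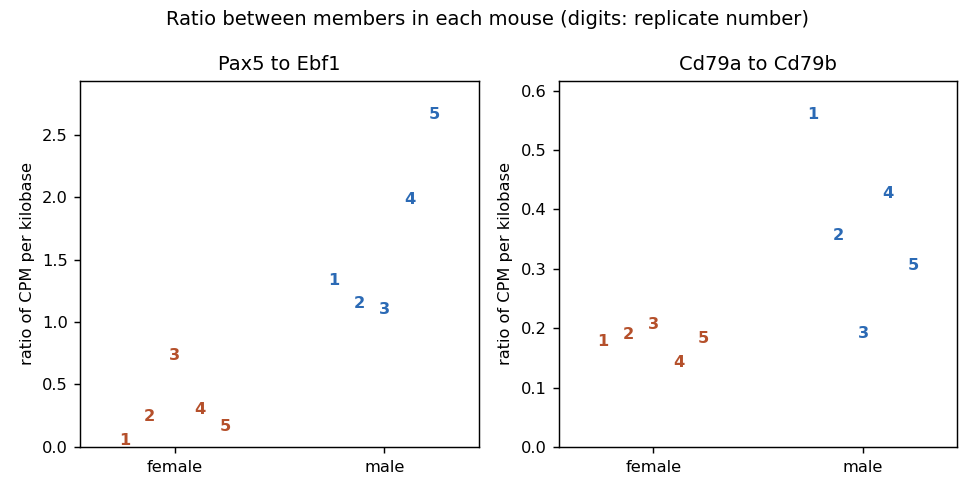
Ratio of CPM per kilobase of exon (vertical axes, no unit) of Pax5 to Ebf1 and of Cd79a to Cd79b in each mouse; digits are replicate numbers. The 5 females lie between 0.0479 and 0.735 for Pax5 to Ebf1 and the 5 males between 1.102 and 2.66, while for Cd79a to Cd79b male replicate 3 lies among the females.

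The signalling chains of the receptor were the most abundant of the 8 genes per kilobase. Cd79b (ENSMUSG00000040592, chromosome 11, 106311341 to 106314762) was at 5.98 CPM per kilobase in females and 8.66 in males, and Cd79a (ENSMUSG00000003379, chromosome 7, 24897381 to 24902197) at 1.07 and 3.42. The order below them, over the mean of both sexes, was Vpreb3, Vpreb1, Blnk, Igll1, Ebf1 and Pax5, the last 2 at 0.104 and 0.101 CPM per kilobase. Ebf1 and Pax5 differed in that mean by less than their spread between mice.

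Cd79a had 26, 35, 49, 31 and 42 counts in female replicates 1 to 5 and 243, 96, 43, 125 and 62 in male replicates 1 to 5. Females were at 1.57 ± 0.326 CPM and males at 4.99 ± 3.22 CPM (SD, n = 5 each), and 4 of 5 males lay above all females. The log2 fold change was -1.67 (SE 0.39, edgeR adjusted p = 0.364; DESeq2 adjusted p = 0.0108). Leaving out male replicate 1 gave -1.23, and leaving out both male replicates 1 and 2 gave -1.06. None of the edgeR fits run called it. Of its 50-base transcript stretches 8.31% also occur in the predicted gene Gm32220.

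Cd79b had 144, 181, 233, 213 and 226 counts in female replicates 1 to 5 and 426, 265, 221, 288 and 199 in male replicates 1 to 5. Females averaged 8.55 ± 1.28 CPM and males 12.4 ± 3.56 CPM (SD, n = 5 each). Male replicates 3 and 5 lay among the females. The difference on the log2 scale was -0.53 (SE 0.19, adjusted p = 0.506), and -0.24 without male replicates 1 and 2. The proteins of Cd79a and Cd79b pair with each other, but their transcripts did not keep 1 ratio: Cd79a to Cd79b per kilobase was 0.143 to 0.207 in females and 0.191 to 0.560 in males. Only male replicate 3 lay within the female range.

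The surrogate light chain genes Vpreb1 (ENSMUSG00000059305, chromosome 16, 16868403 to 16870843) and Igll1 (ENSMUSG00000075370, chromosome 16, 16860671 to 16863985) lie near each other on the same strand. Vpreb1 had 2, 10, 11, 21 and 7 counts in female replicates 1 to 5 and 65, 22, 25, 43 and 14 in male replicates 1 to 5. Female replicate 4, at 0.938 CPM, lay above male replicate 5 at 0.657 CPM, and the other 4 females lay below every male. Its log2 value was -1.73 (SE 0.50, adjusted p = 0.506), and -1.39 without male replicates 1 and 2. Igll1 had 1, 5, 4, 13 and 9 counts in female replicates 1 to 5 and 52, 15, 7, 40 and 9 in male replicates 1 to 5. Male replicates 3 and 5 lay among the females. Fitted without a low-count filter, Igll1 had a log2 value of -1.93 (SE 0.59, adjusted p = 0.522), and -1.50 without male replicates 1 and 2. Male replicate 3 had more Vpreb1 per kilobase against Igll1 (ratio 6.45) than any other mouse (1.40 to 4.96).

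Reads of Vpreb1 can be shared with a near copy. Of the 50-base stretches of its transcripts 23.6% also occur in Vpreb2 or in Top3b, which overlaps it on the opposite strand, and Igll1 shared none. Vpreb2 itself had 8 counts in all females together and 27 in all males, and the levels of both genes are uncertain where reads are shared.

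Vpreb3 (ENSMUSG00000000903, chromosome 10, 75943057 to 75949657) had 13, 5, 14, 4 and 15 counts in female replicates 1 to 5 and 96, 33, 12, 34 and 14 in male replicates 1 to 5. Male replicates 1, 2 and 4 stood at 1.36 to 4.03 CPM, and male replicates 3 and 5 at 0.512 and 0.657 CPM, next to the females (0.179 to 0.631 CPM). Its log2 value was -1.903 (SE 0.58, adjusted p = 0.506). It moved to -1.26 when male replicate 1 was left out and to -0.95 when male replicate 2 was left out as well.

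Blnk (ENSMUSG00000061132, chromosome 19, 40928927 to 40994535) is also expressed in macrophages. It had 57, 65, 53, 72 and 81 counts in female replicates 1 to 5 and 152, 88, 55, 80 and 53 in male replicates 1 to 5. Only male replicates 1 and 2, at 6.38 and 4.57 CPM, lay above the female range of 2.26 to 3.21 CPM. The log2 fold change was -0.43 (SE 0.27, adjusted p = 0.512), and 0.068 without those 2 libraries. Monocyte and macrophage markers (14 of 14 genes measured, led by Lyz2, Ly6c2 and F13a1) summed to 382 to 666 CPM in females and 417 to 2408 CPM in males, highest in male replicate 1. Their part in the Blnk level was not tested.

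**Figure D3:**
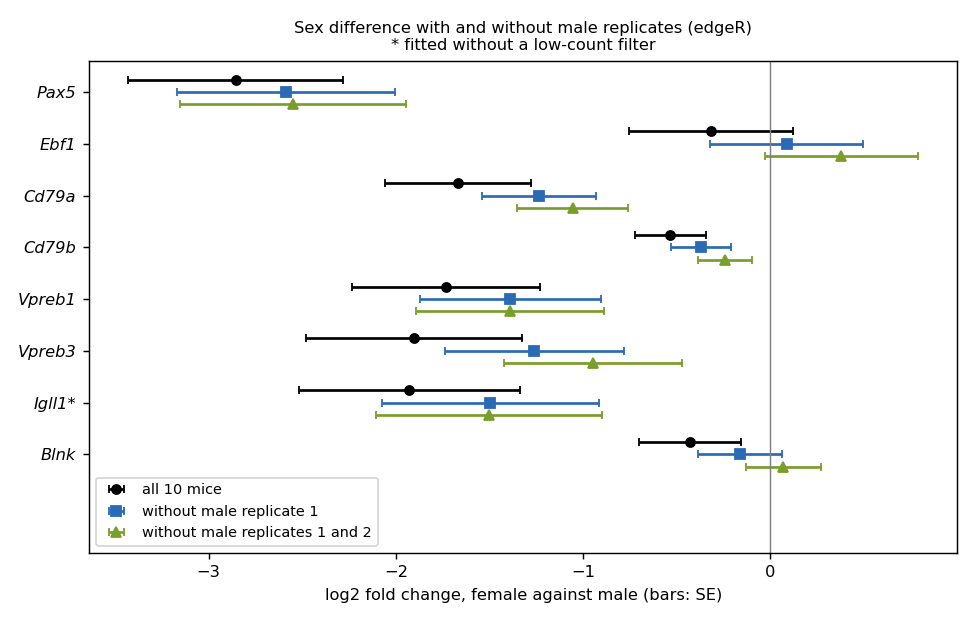
Log2 fold change, female against male, of each early B cell gene (horizontal axis; bars are SE) over all 10 mice, with male replicate 1 left out and with male replicates 1 and 2 left out. Pax5 stays between -2.86 and -2.55, while Ebf1 and Blnk end at 0.38 and 0.068.

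Upstream sequences are shown because several of these genes varied together over the mice and E proteins, EBF1 and octamer-binding factors are known regulators of B lineage promoters. They come from RefSeq (GRCm38.p6), 5′ to 3′ on the gene's strand, from the 250 bases before the annotated start. For Igll1, Cd79a and Vpreb3 the part outside every exon of GENCODE vM21 is printed. A match is a stretch of letters, not a measured site. Capitals mark the E-box CAGGTG, the EBF core CCCNNGGG and the octamer ATTTGCAT on either strand.
Igll1 (chr16:16863986-16864235, minus strand): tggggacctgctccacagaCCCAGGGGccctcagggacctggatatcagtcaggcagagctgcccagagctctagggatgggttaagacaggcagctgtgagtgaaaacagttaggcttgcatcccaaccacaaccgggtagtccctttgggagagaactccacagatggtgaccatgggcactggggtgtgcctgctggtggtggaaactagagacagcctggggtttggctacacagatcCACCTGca
Cd79a (chr7:24897247-24897380, plus strand): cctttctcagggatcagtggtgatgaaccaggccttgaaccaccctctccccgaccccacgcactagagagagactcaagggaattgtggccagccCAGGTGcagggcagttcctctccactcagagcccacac
Vpreb3 (chr10:75948050-75948299, plus strand): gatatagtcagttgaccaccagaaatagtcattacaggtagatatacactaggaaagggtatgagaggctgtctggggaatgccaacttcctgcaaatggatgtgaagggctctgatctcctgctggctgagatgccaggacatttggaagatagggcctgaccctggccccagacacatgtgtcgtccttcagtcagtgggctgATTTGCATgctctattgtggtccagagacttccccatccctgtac
Vpreb1 (chr16:16869330-16869351, minus strand): cgttccagCAGGTGcttcctcc
Blnk (chr19:40994336-40994359, minus strand): tggaagggATTTGCATgcccaata

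For Vpreb1 and Blnk, whose windows run into annotated exons, only a match and its flanks are shown. Of the 8 genes 7 had a promoter in the table, all but Cd79b. The E-box CAGGTG occurred within 250 bases of the start in 4 of these 7 genes, Cd79a, Igll1, Vpreb1 and Blnk, and in 17.2% of 32851 promoter windows of the same length. Its first base lay at -154 in Cd79a, -8 in Igll1, -88 in Vpreb1 and -160 in Blnk, counted from the start. The octamer occurred in Vpreb3 at -45 and in Blnk at -130, that is in 2 of 7 genes and in 1.601% of all windows. The core CCCNNGGG occurred in Igll1 only, at -231, and in 11.8% of all windows. The longer EBF palindrome, which contains that core, occurred in 0 of 7 and in 0.779% of all windows. The E-box CAGCTG occurred in 1 of 7, in Igll1 at -158, and in 13.001% of all windows. Genes with the E-box CAGGTG had log2 fold changes from -1.93 (Igll1, fitted without a low-count filter) to -0.43 (Blnk). Those with a promoter but without this E-box were at -2.86 (Pax5), -1.903 (Vpreb3) and -0.32 (Ebf1). A link between matches and the sex difference was not tested.

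Over the 10 mice r was above 0 in each pair of the 8 genes. Of 28 pairs, 18 passed an adjusted permutation test of Pearson's r on log2 CPM and 14 that of Spearman's rho. The permutations shuffled all 10 mice without regard to sex, so these tests do not separate a shared sex difference from covariation between mice. The median r was 0.78, 0.72 for deviations from the mean of each sex, 0.62 when male replicate 1 was left out and 0.49 when male replicate 2 was left out too. All values of a mouse come from 1 library and share its depth and cell makeup. Pax5 and Cd79a had r = 0.93 (permutation p = 3.0e-05, adjusted p = 8.4e-04) and rho = 0.95 (permutation p = 1.4e-04, adjusted p = 0.00392), and r = 0.91 without the 2 mice farthest from the median of Pax5. Vpreb1 and Igll1 had r = 0.91 (permutation p = 3.8e-04, adjusted p = 0.00224) and rho = 0.85 (permutation p = 0.00292, adjusted p = 0.0136), and r = 0.77 without the 2 mice farthest from the median of Vpreb1. Ebf1 and Blnk had r = 0.86 (permutation p = 9.6e-04, adjusted p = 0.00392) and rho = 0.88 (permutation p = 0.00160, adjusted p = 0.00896), and r = 0.83 without the 2 mice farthest from the median of Ebf1. Pax5 and Ebf1 had r = 0.38 (permutation p = 0.283, adjusted p = 0.293) and rho = 0.36 (permutation p = 0.312, adjusted p = 0.324), and r = -0.09 without male replicates 1 and 4. For deviations from the mean of each sex, r of this pair was 0.60, and that of Ebf1 with the other genes ran from 0.35 (Vpreb1) to 0.91 (Blnk). By the same measure r was 0.83 for Pax5 with Cd79a and 0.83 for Vpreb1 with Igll1. It was lowest for Vpreb1 with Vpreb3, at 0.13.

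**Figure D4:**
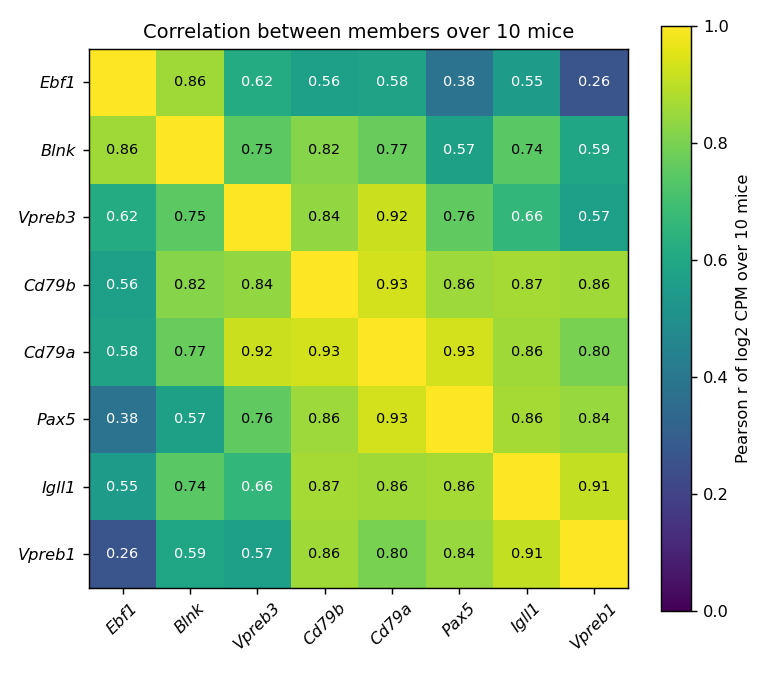
Pearson's r of log2 CPM over the 10 mice for each pair of the 8 genes (both axes list the genes; the colour scale is r from 0 to 1). Values run from 0.26 for Ebf1 with Vpreb1 to 0.93 for Cd79a with Pax5 and with Cd79b.

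Outside the 8, genes were compared over the 10 mice with the mean log2 CPM of the 7 members that passed the filter. Genes named Gm or Rik, or by an identifier only, were left out. Those most like that mean included B and lymphoid genes and others. Among 11456 genes with a mean of at least 1 CPM, the 10 with the highest r were Ptp4a3 (0.98), Bpgm (0.96), Rsad2 (0.96), Tbcel (0.96), Ly6d (0.95), Ugp2 (0.94), Pbxip1 (0.94), Fcrla (0.93), Apol11b (0.93) and Hbb-bs (0.93). They were picked for that likeness, so r is a description over 10 mice that share the high male replicate 1. Ly6d, a surface marker of B-committed lymphoid progenitors, averaged 2.96 ± 0.617 CPM in females against 5.39 ± 2.10 in males (SD, n = 5 each; log2 fold change -0.87, SE 0.25, adjusted p = 0.506). With male replicates 1 and 2 left out, the value of Ly6d was -0.48. Hbb-bs encodes adult beta globin. The erythroid list (10 of 10 measured) summed to 4691 to 9065 CPM in females and 11059 to 47711 CPM in males, led by the globin genes Hba-a1, Hba-a2 and Hbb-bs. Of its 10 genes 7 had a negative log2 fold change, as had 52.0% of all genes tested. Klf1 (0.05), Epor (0.11) and Tfrc (0.11) went the other way.

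Other B lineage genes were not called in either direction. Of 81 genes tested in the 7 lists of B lineage regulators, IL-7 and FLT3 signalling, recombination, receptor signalling, surface markers, immunoglobulin constant regions and plasma cells, 0 were called by edgeR (0.0545% of all genes were), by DESeq2 or by limma. At an unadjusted p under 0.05, 12 of the 81 were lower in females, against 5.41% of all genes tested, and 0 were higher. The median log2 fold change of all 81 was -0.08.

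Regulators of B lineage entry had few differences past the unadjusted threshold. Of 19 tested, 0 were called, 1 had an unadjusted p under 0.05 and was lower in females (Spi1), and the median log2 fold change was -0.02. Tcf3, which encodes the E proteins E12 and E47, averaged 382 ± 33.6 CPM in females against 347 ± 67.4 in males (log2 fold change 0.14, SE 0.13). Foxo1 was at 8.01 ± 1.11 and 9.24 ± 1.05 CPM (-0.21, SE 0.13). Spi1, encoding PU.1, was at 56.1 ± 13.1 and 80.0 ± 27.2 CPM (-0.51, SE 0.22, adjusted p = 0.506), and its value was -0.12 without male replicates 1 and 2. Spib (-0.81), Pou2f2 (-0.35) and Myb (0.15), a factor that early B cell development needs, followed by size of p, with adjusted p of 0.506 to 0.514. Without male replicates 1 and 2 the value of Spib was -0.43.

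In the list of IL-7 and FLT3 signalling, 0 of 10 were called, 1 was lower at an unadjusted p under 0.05 (Crlf2) and the median was 0.13. Il7r, the receptor that pro-B cells depend on in mice, averaged 3.99 ± 1.02 CPM in females against 4.68 ± 1.74 in males (-0.23, SE 0.26, adjusted p = 0.652), and had a log2 value of 0.0018 without male replicate 1. Crlf2 (-0.25), Flt3 (-0.31), Jak1 (0.22) and Il2rg (-0.22) had the smallest p, with adjusted p of 0.506 each.

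Recombination genes had 0 of 12 called, a median of -0.15, and 3 with an unadjusted p under 0.05, all lower in females (Dntt, Rag1 and Hmgb2). Dntt, which adds bases at heavy chain joints, averaged 29.9 ± 11.4 CPM in females against 52.6 ± 8.35 in males (-0.81, SE 0.23, adjusted p = 0.506), and -0.67 without male replicates 1 and 2. Rag1, a subunit of the recombinase, was at 0.748 ± 0.438 and 2.03 ± 0.873 CPM (-1.43, SE 0.43, adjusted p = 0.506), and -1.49 without those libraries. Its partner Rag2 was at 0.636 ± 0.319 and 0.702 ± 0.247 CPM (-0.14, SE 0.39, adjusted p = 0.863), and its value turned to 0.098 without male replicate 1. Hmgb2 (-0.25) and Dclre1c (0.27) were next by p.

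Receptor signalling genes, many of them shared with myeloid cells, had 0 of 15 called, 2 lower at an unadjusted p under 0.05 and a median of -0.08. The inhibitory receptor gene Cd72 was at 3.13 ± 0.571 against 4.81 ± 0.928 CPM in females and males (-0.62, SE 0.19, adjusted p = 0.506). Ptpn6 (-0.26), Fcgr2b (-0.38) and Prkcb (-0.64) followed, with adjusted p of 0.506. Of the surface list 0 of 14 tested were called, and 4 were lower at an unadjusted p under 0.05. These were Dntt again, Fcrla (0.611 ± 0.152 against 1.42 ± 0.783 CPM), Cd37 (62.1 ± 4.91 against 74.8 ± 5.88 CPM) and Sox4 (46.4 ± 8.002 against 57.0 ± 7.73 CPM). The log2 fold change was -1.21 for Fcrla and -0.27 for Cd37, and -0.82 and -0.19 without male replicates 1 and 2.

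Of the immunoglobulin constant region list 0 of 7 were called, 2 were lower at an unadjusted p under 0.05 (Ighd and Iglc1) and the median was -0.21. Ighm, the mu heavy chain, averaged 496 ± 205 CPM in females against 535 ± 240 in males (-0.11, SE 0.30, adjusted p = 0.863), and Igkc at 338 ± 76.2 and 408 ± 191 CPM (-0.27, SE 0.28, adjusted p = 0.623). Without male replicate 1 both log2 values were above 0, at 0.19 and 0.01. Ighd, which mature B cells express, was at 0.253 ± 0.209 and 0.959 ± 0.520 CPM (-1.88, SE 0.53, adjusted p = 0.506), and -1.18 without male replicates 1 and 2. Iglc1 had a value of -0.87, which was -0.49 with those libraries left out, and Jchain of -0.21. Male replicate 4 was the lowest library for the summed constant region list and among the 3 highest for 7 of the 8 early B cell genes. Plasma cell markers had 0 of 6 tested called and a median of 0.10, with Mzb1 (1.01), Derl3 (0.53) Txndc5 (0.14) and Jchain at the smallest p. Of 12 lymphoid priming markers 0 were called, 5 were lower at an unadjusted p under 0.05 (Dntt, Rag1, Ly6d, Satb1 and Lck) and the median was -0.36.

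Summed levels of markers of other cells are given by sex, and their correlation with the 8 genes was not computed. All 13 mature neutrophil markers were measured. Each had an unadjusted p under 0.05 with the lower level in females, against 5.41% of all genes tested. Their sum was 310 to 1150 CPM in females and 247 to 10191.5 CPM in males. It was highest in male replicate 1, followed by male replicate 2 at 3058 CPM. Male replicate 5, where Pax5 stood at 1.36 CPM, had the lowest sum, below every female. The leading genes were S100a9, Ngp and S100a8. T and natural killer markers (13 of 13 measured, led by Nkg7, Thy1 and Lck) summed to 37.5 to 59.3 CPM in females and 57.1 to 95.7 CPM in males. Dendritic markers (12 of 12, led by Bst2, Tcf4 and Flt3) summed to 121 to 160 CPM in females and 143 to 179 CPM in males. Stem and progenitor markers (12 of 12, led by Kit, Gata2 and Cd34) summed to 554 to 727 CPM in females and 468 to 710 CPM in males. Genes of handling and RNA quality (15 of 15) summed to 14851 to 17914 CPM in females and 14966 to 26365 CPM in males, highest in male replicate 2. No gene of these lists was at 0 over all libraries, and their part in the values of the 8 genes was not tested.

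**Figure D5:**
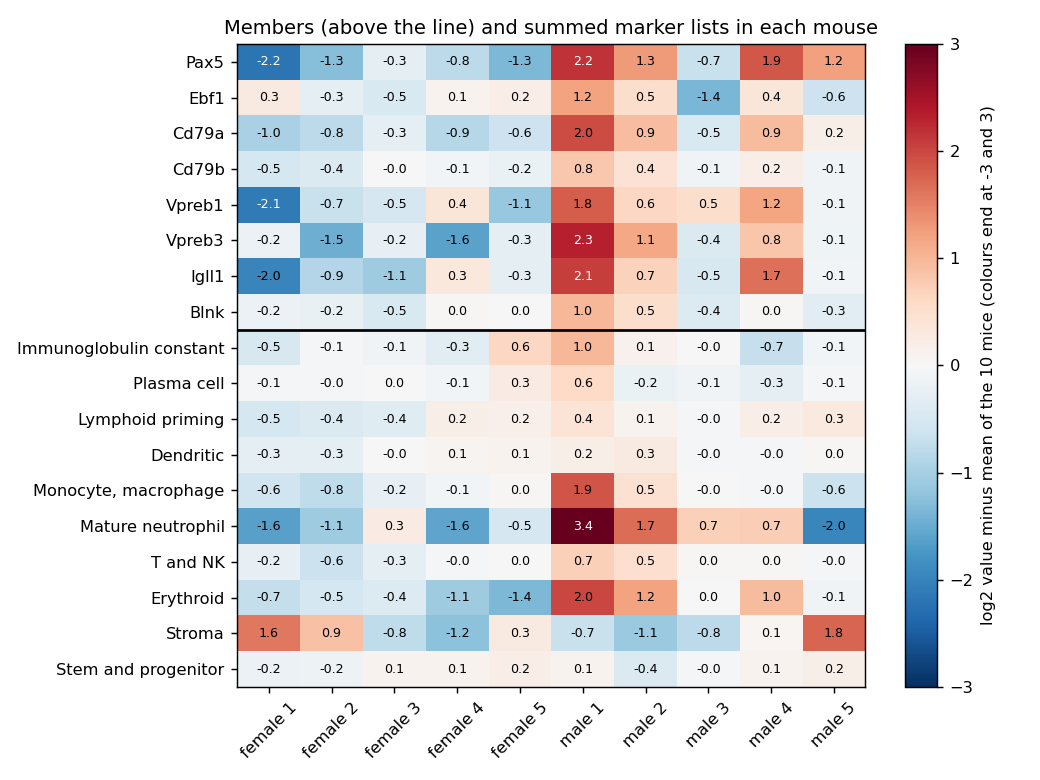
Log2 CPM of each early B cell gene (above the line) and log2 of the summed CPM of marker lists (below it), as the difference from the mean of the 10 mice, in each library (columns); red is above and blue below that mean. Male replicate 1 is above the mean in all rows except stroma, and the stroma and neutrophil rows order the mice differently.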

How the data were processed

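Libraries of 5 female and 5 male mice, each from a separate mouse, were grouped by the sex in their titles. STAR, featureCounts, DESeq, GRCm38.p6 and mm10 are named in the submitters' processing notes, and their versions or roles were not found. The authors deposited raw counts per gene. They also deposited a normalized signal table, checked to be those counts over a constant for each library (0.852 to 1.13). Symbols, positions and exon lengths come from GENCODE vM21, in which 25116 of 25178 identifiers were found.

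Counts were filtered with filterByExpr, scaled by TMM and fitted by sex with glmQLFit (robust) and glmQLFTest of edgeR 4.0.16 in R 4.3.3. DESeq2 1.42.0 and limma 3.58.1 were alternatives, beside other scaling, filters, a replicate block and fits without single libraries. CPM refers to TMM-scaled totals. The SE of a fold change is its size over the square root of F. Log2 CPM for correlations used a prior count of 2, with 100000 permutations. The fit was also run on simulated counts with known changes, and the result is not given here. Changes were placed only in genes averaging at least 1 CPM, and no simulated library was made to stand out. That run therefore cannot show how the fit performs for fainter genes such as Pax5, Vpreb1 and Igll1.

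The members and lists were chosen by name, with earlier results of these data known. Counts of them beside the share of all genes are therefore descriptions, not tests. The genes named are the 8 members, the 4 of smallest p in each B lineage list with 7 chosen by name, the constant region genes and paralogs, the 3 most abundant of each marker list, and the 10 most like the 7 filtered members. A gene under this rule is not reported here. Sources used here give no strand setting, so antisense reads cannot be told apart. SD is between mice.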

Additional observations from a re-analysis of the deposited data

How the results depend on the processing

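The count of early B cell genes called was 0 in all alternatives except the DESeq2 Wald test, which gave 2, and the fit without male replicate 3, which gave 1 (range 0 to 1 over the fits that left out 1 library). Over all genes 8 were called, 53 by DESeq2, 22 by limma and 5 with a replicate block. The median log2 fold change of the members was -1.67, and -1.09 by limma, -0.95 without male replicates 1 and 2, and -0.49 when 1 CPM in 5 libraries was asked for, a filter that only 4 of the 8 passed. Lower at an unadjusted p under 0.05 were 5 of 7 members (5.41% of all genes), 2 of 4 under that filter (5.18%) and 3 of 7 without male replicates 1 and 2 (1.94%), a count added after seeing the data, as were the values of other B lineage genes without these libraries. Ebf1 turned from -0.32 to 0.22 by limma, 0.087 without male replicate 1 (range -0.56 to 0.087) and 0.38 without male replicates 1 and 2, where Blnk was at 0.068. The median correlation between members was 0.78, and 0.49 without male replicates 1 and 2. The causes were not tested.

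The labels do not say that replicate numbers pair the mice. Deviations of same-numbered mice from the mean of their sex correlated at -0.302 to -0.00710 across genes. Mice of different numbers were not compared in this way, so these values cannot show whether the numbers pair the mice. With the replicate block the median of the members was -1.46 and 0 were called. Pax5 rests on 25 counts in females and Igll1 on 32, which limits what these libraries can resolve.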

Other observations

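Of the 8 measured paralogs of these genes, 4 passed the filter and 0 were called. Ebf3, which marrow stroma expresses, averaged 0.962 ± 0.381 CPM in females against 1.02 ± 0.522 in males (SD, n = 5 each; log2 fold change -0.09, SE 0.38, edgeR adjusted p = 0.908). Ebf2 had 2 counts in all females together and 0 in all males, and Ebf4 had 7 and 2. Pax8 had 3 counts in females and 15 in males. The adaptor gene Lcp2, related to Blnk, was at 32.3 ± 3.70 and 33.5 ± 7.61 CPM (log2 fold change -0.05, SE 0.15), and Clnk at 0.518 ± 0.158 and 0.406 ± 0.192 CPM (0.36, SE 0.37).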
